A study of Mus musculus with 4 samples.

Results

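The genes described here are 10 brakes and feedback genes of MAP kinase signalling in mouse bone marrow-derived macrophage-like cells (BMMs): the MAPK phosphatase genes *Dusp1*, *Dusp2*, *Dusp4*, *Dusp5* and *Dusp6*, the Sprouty genes *Spry1* and *Spry2*, the Spred genes *Spred1* and *Spred2*, and *Ier3*. They were picked by symbol, and all 10 were found among the 23920 genes of the table. All 10 also stood among the 10763 genes that reached 1 FPKM (fragments mapped to a gene, scaled for transcript length and library depth) in at least 1 library, although *Spry1* did so only through the RANKL library, so that it had to differ between libraries. Each of the 4 conditions was represented by 1 bulk RNA sequencing library of C57BL/6 cells cultured for 24 h. In the first, *Stat5* cKO cells received M-CSF at 30, RANKL at 100 and IL-3 at 1 ng/mL, and it is called the cKO library. The other three libraries came from *Stat5* fl/fl cells, whose floxed *Stat5a* and *Stat5b* are intact: the IL-3 library was given the same 3 cytokines, the RANKL library M-CSF and RANKL, and the M-CSF library M-CSF alone, all at the same doses. The deletion was driven by Cre under the *Mx1* promoter, which type I interferon induces and which acts in hematopoietic and other interferon-responsive cells. Per the methods both genotypes were given poly(I:C), and the human forms of M-CSF and RANKL were used with mouse IL-3. The labels give male mice aged 8 weeks.

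ERK, JNK and p38 are kinases that RANKL and M-CSF switch on in osteoclast precursors, and ERK supports both the differentiation and the survival of osteoclasts. Their activity is ended by dual-specificity phosphatases (DUSPs), which remove phosphate from the kinase and many of which are themselves transcribed in response to it. Sprouty and Spred proteins act further up, between growth factor receptors, Ras and Raf. STAT5, the transcription factor that IL-3 activates, has been linked to ERK in osteoclasts through *Dusp1* and *Dusp2*, and the 3 comparisons made here ask how transcripts of such brakes differed with each cytokine and with loss of STAT5. Kinase activity was not measured in these libraries.

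As a check of the labels, *Stat5a* stood at 0.17 FPKM in the cKO library, against 12.0 in the IL-3 library, 10.8 in the RANKL library and 9.89 in the M-CSF library. *Stat5b* stood at 0.19 FPKM in the cKO library and at 8.86, 7.80 and 10.8 in the IL-3, RANKL and M-CSF libraries. Depth estimated from the smallest values was 33.4 to 36.9 M fragments per library. The labels name the cells osteoclasts or their precursors, and the summed level of 10 osteoclast markers was 518 FPKM in the cKO library, 141 in the IL-3 library, 1277 in the RANKL library and 45.9 in the M-CSF library, with *Calcr* at 0 and *Oscar* under 1 FPKM in all 4. Another of these markers, *Itgb3*, was highest in the M-CSF library (1.38 FPKM) and lowest in the cKO library (0.40). The osteoclast sum had the order in which *Dusp2* stood, and its part in the values of the 10 genes was not tested. The sum of 9 macrophage markers was 1556 FPKM in the cKO library, 2491 in the IL-3 library, 1308 in the RANKL library and 3486 in the M-CSF library, which is also the order of *Dusp6*. Taken singly, *Csf1r*, *Fcgr1*, *C1qa* and *Mertk* had that order, whereas *Cd14*, *C1qb*, *Mrc1*, *Cd68* and *Itgam* did not. The sum of 8 dendritic cell markers was 140, 613, 124 and 182 FPKM in the cKO, IL-3, RANKL and M-CSF libraries, the order of *Ier3*. Singly, *Cd74*, *Cd86* and *Flt3* had it, whereas *Itgax*, *H2-Ab1*, *Cd80*, *Zbtb46* and *Ccr7* did not. Of these markers *Flt3*, *Zbtb46* and *Ccr7* stayed under 1 FPKM in all 4 libraries, and *Cd74* alone held 434 of the 613 FPKM in the IL-3 library. Neutrophil markers (6 of 7 in the table, none at 0) summed to 172 FPKM in the cKO library, 234 in the IL-3 library, 169 in the RANKL library and 275 in the M-CSF library. This was again the order of *Dusp6*, but the cKO and RANKL sums were close. *Camp* and *Cxcr2* had that order singly, whereas *Elane*, *Mpo*, *Ngp* and *Ltf* did not. The part of these cell types in the values of *Dusp6* and *Ier3* was not tested. T cell, B cell, basophil and mast cell, erythroid and stromal lists summed to at most 5.0 FPKM in any library. In these bulk samples fewer cells of a type and less RNA per cell cannot be told apart.

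Stretches of sequence before the transcription start are shown for the 2 genes with the widest spread between libraries among those above 5 FPKM, *Dusp6* and *Ier3*, for *Dusp5*, which carried a pair of CArG boxes, and for *Dusp1*, which carried a full cyclic AMP response element. The sequences are from RefSeq on GRCm38.p6, the assembly also called mm10, and run 5′ to 3′ toward the gene. They cover the bases from 200 to 40 before the start, and for *Dusp1* those from 154 to 125. Capitals mark the matches named after them.
*Dusp6* (chr10:99263031-99263191, plus strand): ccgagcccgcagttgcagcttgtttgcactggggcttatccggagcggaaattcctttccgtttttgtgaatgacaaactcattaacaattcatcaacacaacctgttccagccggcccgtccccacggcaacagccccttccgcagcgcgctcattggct
*Ier3* (chr17:35821513-35821673, plus strand): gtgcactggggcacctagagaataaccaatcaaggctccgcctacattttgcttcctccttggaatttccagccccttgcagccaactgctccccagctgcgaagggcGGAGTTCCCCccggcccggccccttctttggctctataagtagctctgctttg
*Dusp5* (chr19:53528945-53529105, plus strand): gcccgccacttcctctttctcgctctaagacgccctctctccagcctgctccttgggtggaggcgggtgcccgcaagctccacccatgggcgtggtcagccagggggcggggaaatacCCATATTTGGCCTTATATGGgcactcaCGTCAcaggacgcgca
*Dusp1* (chr17:26508597-26508626, minus strand): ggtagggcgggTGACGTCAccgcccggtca
RefSeq promoter windows, 250 bases before and 50 after the start, were matched for 9 of the 10 genes, *Dusp4* having no entry. Both strands were searched for 6 motifs. The STAT motif TTCNNNGAA, present in 8.30% of all 32851 promoter windows, had no match in the 9, and neither had the AP-1 motif TGANTCA, present in 7.81%. These letters are absent from these windows only, and sites elsewhere were not searched. The full cyclic AMP response element TGACGTCA, present in 1.79% of all windows, was found in *Dusp1* alone, at −143, the place of its first base counted from the start. Its shorter core TGACG, which the full element contains on both strands, occurred in 20.8% of windows and in those of *Dusp1*, *Dusp2*, *Dusp5* and *Spred2*. The CArG box bound by serum response factor, found in 1.63% of windows, was present as 2 adjoining copies in *Dusp5*, at −82 and −72. One NF-kB site, a motif of 8.46% of windows, lay at −92 in *Ier3*. *Dusp6*, *Spry1*, *Spry2* and *Spred1* held none of the 6 motifs. A match is a run of letters and no evidence of binding.

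With RANKL, 4 of the 10 genes (*Dusp2*, *Dusp4*, *Dusp5* and *Spry1*) were at least 2-fold higher in the RANKL library than in the M-CSF library, where 5.44% of all genes were. *Spry1* passed the filter only through the RANKL library, so the filter favoured its place among these. At least 2-fold lower were 2 (*Dusp6* and *Ier3*), where 6.88% of all genes were. With IL-3, 2 of the 10 (*Dusp6* and *Ier3*) were at least 2-fold higher in the IL-3 library than in the RANKL library, against 6.11% of all genes, and 2 (*Dusp2* and *Dusp4*) were lower, against 3.47%. Without STAT5, 2 of the 10 (*Dusp2* and *Dusp4*) were at least 2-fold higher in the cKO library than in the IL-3 library, against 2.11% of all genes, and 2 (*Dusp6* and *Ier3*) were lower, against 4.28%. Ratios are of FPKM + 1 on the log2 scale and folds are of FPKM. With 1 library per condition no test was possible, so the intervals given here cover counting error only. The comparisons share libraries, so a RANKL or IL-3 library that stood apart for any reason would move a gene in opposite directions in neighbouring comparisons. The median log2 ratio of the 10 genes was 0.36 in the RANKL comparison, −0.42 in that of IL-3 and 0.38 in that of cKO cells, beside 0.14, −0.15 and 0.13 for all genes.

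**Figure D1:**
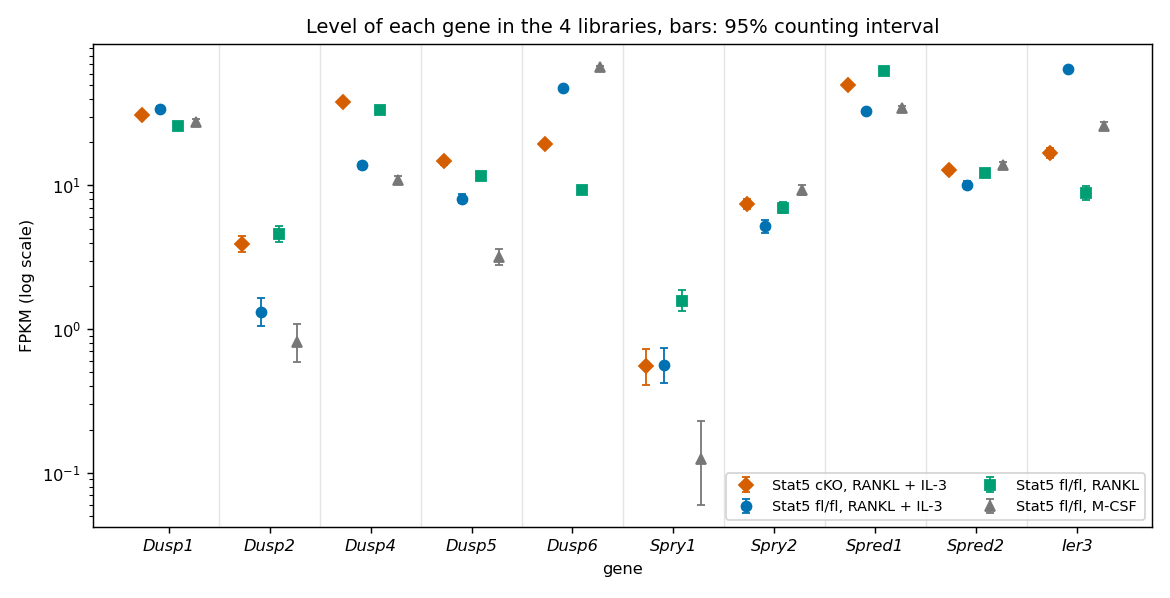
Level of each of the 10 genes in FPKM (log axis) in the 4 libraries, 1 symbol per library, with the 95% counting interval as a bar. *Dusp6* and *Ier3* are lowest in the RANKL library (9.25 and 8.87 FPKM), whereas *Dusp2*, *Dusp4* and *Dusp5* are high in the cKO and RANKL libraries and low in the M-CSF library.

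*Dusp6* (gene ID 67603, chromosome 10, 99263231 to 99267489) encodes the phosphatase that removes phosphate from ERK in the cytoplasm, and in many cells its transcript follows ERK activity. Its level was 19.5 FPKM in the cKO library, 47.5 in the IL-3 library, 9.25 in the RANKL library and 66.2 in the M-CSF library. No pair of neighbouring levels had overlapping counting intervals. The RANKL library was thus 7.15-fold lower than the M-CSF library (95% counting interval 6.67 to 7.67), a log2 ratio of −2.71. This was the widest of the 10 genes in that comparison on the scale of FPKM + 1, but on FPKM itself, and with a pseudocount of 0.1, the scarce *Spry1* differed more. With IL-3 the level was 5.13-fold higher than with RANKL alone (4.78 to 5.51, log2 ratio 2.24), and yet 1.39-fold lower than with M-CSF alone. In the cKO library it was 2.43-fold lower than in the IL-3 library (2.31 to 2.56, log2 ratio −1.24), and 2.11-fold higher than in the RANKL library without IL-3 (1.95 to 2.29). The cKO level therefore lay between those of *Stat5* fl/fl cells with and without IL-3.

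*Ier3* (gene ID 15937, chromosome 17, 35821713 to 35822911) is an immediate early gene whose product is an ERK substrate, known in other cells for effects on survival and for prolonging rather than ending ERK phosphorylation. It is thus a feedback gene of the pathway and not one of its phosphatases. Its level was 16.8 FPKM in the cKO library, 64.6 in the IL-3 library, 8.87 in the RANKL library and 25.8 in the M-CSF library, all 4 apart by their counting intervals. The IL-3 library stood highest, 7.29-fold above the RANKL library (6.52 to 8.17, log2 ratio 2.73) and 2.50-fold above the M-CSF library (2.32 to 2.69). In that it differed from *Dusp6*, which was highest with M-CSF alone. RANKL alone gave a 2.92-fold lower level than M-CSF alone (2.58 to 3.30). Loss of STAT5 went with a 3.84-fold lower level in the presence of IL-3 (3.54 to 4.18, log2 ratio −1.88), the lowest ratio of the 10 genes in that comparison.

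*Dusp4* (gene ID 319520, chromosome 8, 34807610 to 34819894) encodes a nuclear phosphatase of ERK and JNK. It stood at 37.8 FPKM in the cKO library, 13.8 in the IL-3 library, 33.3 in the RANKL library and 10.9 in the M-CSF library. The cKO and RANKL libraries were high and the other two low, the reverse of *Dusp6*. RANKL gave a level 3.06-fold above M-CSF (2.85 to 3.29), and IL-3 one 2.41-fold below RANKL alone (2.26 to 2.57). The cKO library was 2.74-fold above the IL-3 library (2.57 to 2.91, log2 ratio 1.39) and 1.14-fold above the RANKL library (1.08 to 1.19), so that the level with IL-3 in the absence of STAT5 was not below that with RANKL alone.

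*Dusp2* (gene ID 13537, chromosome 2, 127336159 to 127338377), a nuclear phosphatase first known from activated lymphocytes, was likewise high in the cKO and RANKL libraries, at a lower level. It stood at 3.93 FPKM in the cKO library, 1.32 in the IL-3 library, 4.59 in the RANKL library and 0.81 in the M-CSF library, from an estimated 234, 79, 260 and 44 fragments. RANKL against M-CSF gave a ratio of 5.69 (4.12 to 8.02), and the log2 ratio of FPKM + 1, 1.63, understates it because the level is low. The IL-3 library was 3.47-fold below the RANKL library (2.69 to 4.53). The cKO library was 2.97-fold above the IL-3 library (2.29 to 3.88), a log2 ratio of 1.09 with a counting interval of ± 0.23 that takes in the 2-fold limit, and scaling by the median ratio brought it to 0.99. Counting intervals of the cKO and RANKL libraries overlapped. Those of the IL-3 and M-CSF libraries also did, although the interval of their ratio, 1.64-fold (1.12 to 2.42), lay above 1.

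*Dusp5* (gene ID 240672, chromosome 19, 53529145 to 53541809), the nuclear phosphatase specific to ERK, was 14.7 FPKM in the cKO library, 8.10 in the IL-3 library, 11.6 in the RANKL library and 3.18 in the M-CSF library. All 3 libraries with RANKL stood above the M-CSF library. The RANKL library was 3.65-fold above M-CSF (3.19 to 4.20). The IL-3 library was 2.54-fold above M-CSF (2.21 to 2.94), unlike *Dusp4*, for which this fold was 1.27. With loss of STAT5 the level was 1.82-fold higher (1.66 to 1.99, log2 ratio 0.79), short of the 2-fold limit. An antisense gene shares 547 exon bases with *Dusp5*, and since the use of strand in counting is not given in the sources used here, reads of the pair cannot be told apart.

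*Dusp1* (gene ID 19252, chromosome 17, 26505591 to 26508472) encodes the phosphatase that ends p38 and JNK signalling in activated macrophages. It varied least in ratio of the 5 phosphatase genes, with 30.7 FPKM in the cKO library, 34.3 in the IL-3 library, 25.8 in the RANKL library and 27.7 in the M-CSF library. The RANKL and M-CSF levels had overlapping counting intervals, and the RANKL level was 1.07-fold below (1.01 to 1.15). The IL-3 library was 1.33-fold above the RANKL library (1.25 to 1.41, log2 ratio 0.40), and the cKO library 1.12-fold below the IL-3 library (1.06 to 1.18, log2 ratio −0.16). *Dusp1* and *Dusp2*, the pair linked to STAT5 before, therefore stood on opposite sides of 0 in the cKO comparison. Only *Dusp2* passed 2-fold, and it was higher without STAT5. The earlier work that the paper cites had STAT5 inducing *Dusp* genes. That work removed STAT5 at the pre-osteoclast stage with Cathepsin K-Cre, unlike the cells here.

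**Figure D2:**
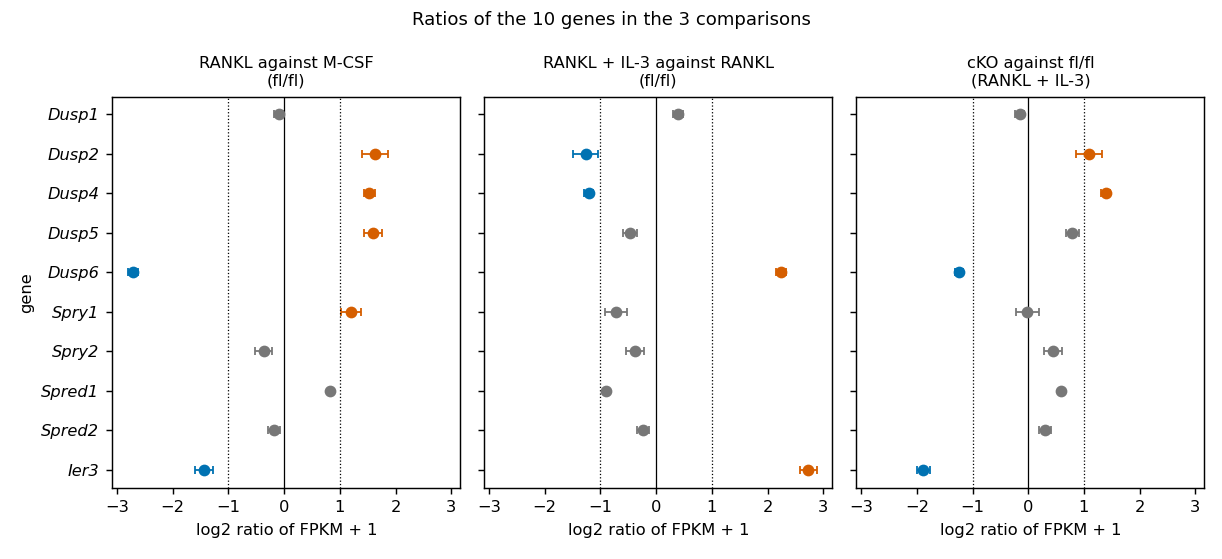
Log2 ratio of FPKM + 1 of the 10 genes in the 3 comparisons, with approximate 95% counting half-widths as bars and dotted lines at 2-fold. Orange points are at least 2-fold higher, blue points at least 2-fold lower and grey points between, and *Dusp6* (−2.71, 2.24 and −1.24) and *Ier3* (−1.44, 2.73 and −1.88) lie beyond the lines in all 3 panels.

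*Spred1* (gene ID 114715, chromosome 2, 117121071 to 117182279) encodes a membrane protein that brings neurofibromin, an inhibitor of Ras, to the membrane. It was the most abundant of the Sprouty and Spred genes per length of transcript, at 50.3 FPKM in the cKO library, 33.0 in the IL-3 library, 62.5 in the RANKL library and 34.7 in the M-CSF library. The 2 libraries with the higher levels, RANKL and cKO, were those in which *Dusp4* was high. No difference reached 2-fold. The RANKL library was 1.80-fold above M-CSF (1.75 to 1.85), the IL-3 library 1.89-fold below RANKL (1.84 to 1.95), and the cKO library 1.52-fold above the IL-3 library (1.48 to 1.57). Of its 2 listed transcripts the longer, of 6016 nt, held nearly all of the signal, with 49.7, 32.8, 61.7 and 34.4 FPKM in the cKO, IL-3, RANKL and M-CSF libraries.

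*Spred2* (gene ID 114716, chromosome 11, 19924442 to 20024026), its close relative, differed little. It stood at 12.7 FPKM in the cKO library, 10.1 in the IL-3 library, 12.1 in the RANKL library and 13.9 in the M-CSF library, and its log2 ratio was −0.18 in the RANKL comparison, −0.24 in that of IL-3 and 0.31 in that of cKO cells. The cKO level overlapped those of the RANKL and M-CSF libraries within counting error. *Spry2* (gene ID 24064, chromosome 14, 105891947 to 105896819), an inhibitor of receptor tyrosine kinase signalling, was 7.42 FPKM in the cKO library, 5.18 in the IL-3 library, 7.0 in the RANKL library and 9.33 in the M-CSF library. It was lowest in the IL-3 library, 1.80-fold below M-CSF (1.59 to 2.05), and its log2 ratio, −0.37 in both the RANKL and the IL-3 comparison and 0.45 in that of cKO cells, stayed within 2-fold.

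*Spry1* (gene ID 24063, chromosome 3, 37639947 to 37644599) was scarce, with 0.55 FPKM in the cKO library, 0.57 in the IL-3 library, 1.58 in the RANKL library and 0.12 in the M-CSF library, from an estimated 51, 52, 138 and 10 fragments. *Spry1* passed the filter only through the RANKL library, so its highest level had to be there. The RANKL library stood above the other libraries beyond counting error. Its ratio to the M-CSF library was 12.7 on FPKM (6.68 to 27.0) but 1.2 on the log2 scale of FPKM + 1. The cKO and IL-3 libraries had overlapping intervals, with a ratio of 0.97 (0.65 to 1.46), so that *Spry1* was lower in both libraries with IL-3 than with RANKL alone. A predicted gene on the other strand shares 710 exon bases with it, and reads of the pair cannot be told apart. *Spry3*, *Spry4* and *Spred3* stayed under 1 FPKM in every library.

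The classical MAPK phosphatases fall into 3 classes by where they act and on what: the inducible nuclear enzymes (*Dusp1*, *Dusp2*, *Dusp4* and *Dusp5*), the cytoplasmic ERK phosphatases (*Dusp6*, *Dusp7* and *Dusp9*) and those selective for JNK and p38 (*Dusp8*, *Dusp10* and *Dusp16*). This grouping was added after the values were seen. The 10 genes of the 3 classes summed to 127.9 FPKM in the cKO library, 143 in the IL-3 library, 111 in the RANKL library and 149 in the M-CSF library. The nuclear class took 68.2% of this sum in the cKO library, 40.2% in the IL-3 library, 67.9% in the RANKL library and 28.6% in the M-CSF library. The cytoplasmic class took 27.2%, 51.4%, 27.8% and 63.5% in the cKO, IL-3, RANKL and M-CSF libraries. Shares by class were thus close in the cKO and RANKL libraries, and the largest single gene was *Dusp4* in both (29.6% and 30.02%). Within the cytoplasmic class the genes differed in opposite directions. *Dusp6* took 15.3% in the cKO library and 8.34% in the RANKL library, against 8.49% and 12.0% for *Dusp7* and 3.43% and 7.47% for *Dusp9*. In the IL-3 and M-CSF libraries the largest was *Dusp6* (33.2% and 44.4%). FPKM is a level per length of transcript, and the shares say nothing of protein or activity.

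**Figure D3:**
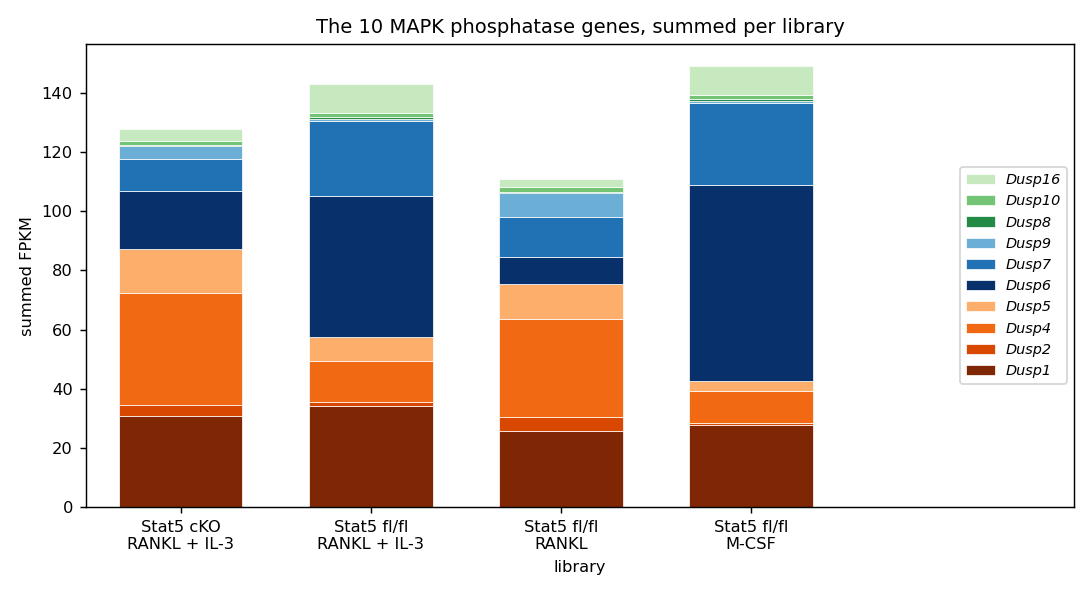
Summed FPKM of the 10 classical MAPK phosphatase genes in each library, stacked by gene, with the nuclear class in orange, the cytoplasmic ERK class in blue and the JNK and p38 class in green. Orange fills 68.2% of the cKO bar and 67.9% of the RANKL bar, against 40.2% of the IL-3 bar and 28.6% of the M-CSF bar.

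Of the 8 other MAPK phosphatase genes listed, 5 reached 1 FPKM. With RANKL, 1 of the 5 was at least 2-fold higher and 2 lower, beside 5.44% and 6.88% of all genes. With IL-3, 1 was higher and 1 lower, beside 6.11% and 3.47%, and in cKO cells 1 was higher and 2 lower, beside 2.11% and 4.28%. All of these calls fell on *Dusp7*, *Dusp9* and *Dusp16*. *Dusp7*, a cytoplasmic ERK phosphatase like *Dusp6*, stood at 10.9 FPKM in the cKO library, 25.5 in the IL-3 library, 13.3 in the RANKL library and 27.9 in the M-CSF library, and was thus high in the same pair of libraries as *Dusp6*, over a narrower range (log2 ratios −1.01, 0.89 and −1.16). *Dusp9*, the third member of that class, ran the other way, at 4.39 FPKM in the cKO library, 0.53 in the IL-3 library, 8.29 in the RANKL library and 0.62 in the M-CSF library. The 3 cytoplasmic ERK phosphatase genes thus did not share 1 course. *Dusp16*, selective for JNK and p38, was 4.06 FPKM in the cKO library, 9.96 in the IL-3 library, 2.90 in the RANKL library and 9.92 in the M-CSF library.

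Outside these, 1 of 8 atypical dual-specificity phosphatase genes that reached 1 FPKM was lower with RANKL (*Dusp3*, log2 ratio −1.03), beside 6.88% of all genes. Higher with IL-3 was 1 (*Dusp23*, 1.35), beside 6.11% of all genes, and in cKO cells *Dusp23* was lower (−1.02), beside 4.28%. Among 12 genes listed as other brakes on Ras and ERK only *Trib1*, a pseudokinase that binds MEK, passed 2-fold, at −1.05 with RANKL and 1.06 with IL-3. Of all genes 6.88% were lower with RANKL and 6.11% higher with IL-3. Whether *Trib1* acts as a brake on ERK in these cells was not tested. Of 14 genes of the ERK cascade list, none passed 2-fold with IL-3 or in cKO cells, and the list medians were 0.02 in the RANKL comparison, −0.01 in that of IL-3 and 0.08 in that of cKO cells. Of 14 p38 and JNK cascade genes, *Map3k5* was lower with RANKL (−1.22), while *Mapkapk3*, a kinase activated by p38, was higher with IL-3 (1.5) and lower without STAT5 (−2.07). The shares of all genes in those 3 directions were 6.88%, 6.11% and 4.28%.

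The ERK-induced transcription genes, among them immediate early genes and ETS factors, went in both directions, as the 10 genes did. Of 12 that reached 1 FPKM, 4 were higher and 2 lower with RANKL, beside 5.44% and 6.88% of all genes. With IL-3, 4 were higher and 1 lower, beside 6.11% and 3.47%. In cKO cells 1 was higher and 3 lower, beside 2.11% and 4.28%. *Etv5*, an ETS factor that in many cells is transcribed in step with *Dusp6*, stood at 11.5 FPKM in the cKO library, 22.7 in the IL-3 library, 6.34 in the RANKL library and 42.2 in the M-CSF library, the order of *Dusp6*. *Egr1*, *Egr2* and *Phlda1* had log2 ratios of 1.70, 1.90 and 1.64 with IL-3 and of −1.81, −2.51 and −1.04 in cKO cells, the directions of *Ier3* in those comparisons. With RANKL, however, *Egr2* was higher (1.09), where *Ier3* was lower (−1.44), and *Egr1* and *Phlda1* stood at −0.43 and −0.95. *Epha2* was lower with RANKL (−1.18). *Fos*, the immediate early gene that osteoclast formation needs, had the order of *Dusp2*, at 195 FPKM in the cKO library, 86.8 in the IL-3 library, 262 in the RANKL library and 42.0 in the M-CSF library. *Junb* and *Myc* were higher with RANKL (1.85 and 1.67) and within 2-fold otherwise. Of the mRNA decay factors that bind AU-rich elements, common in transcripts of immediate early genes, *Zfp36l1* was lower with RANKL (−1.13) and *Zfp36* higher with IL-3 (1.10).

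**Figure D4:**
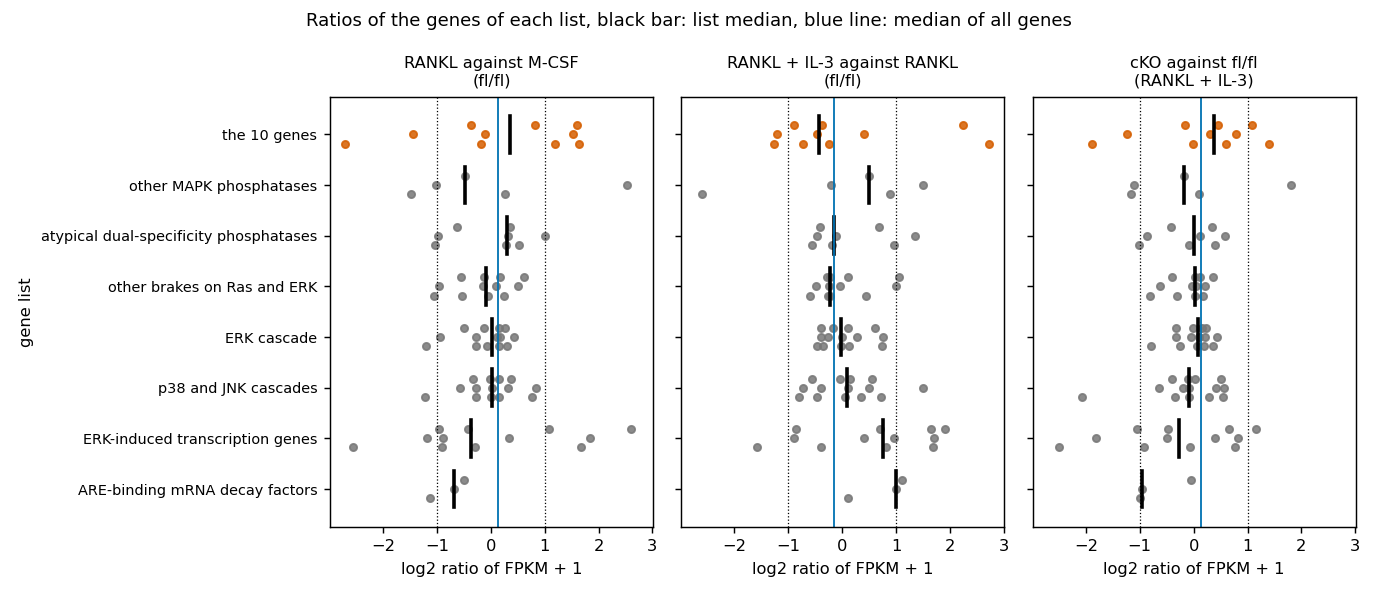
Log2 ratio of FPKM + 1 of every gene at or above 1 FPKM in each list, 1 point per gene (spread up and down within a list only for legibility), for the 3 comparisons. Black bars are list medians, blue lines the median of all genes and dotted lines 2-fold. The ERK cascade medians are 0.02, −0.01 and 0.08, and those of the 10 genes 0.36, −0.42 and 0.38. Single members of the 10 genes reach −2.71 and 2.73.

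Genes with the most similar course over the 4 libraries were ranked by the root mean square difference of log2(FPKM + 1) after each gene's own mean was subtracted, among 1450 or 1451 genes at or above 5 FPKM in some library and at least 2-fold apart. For *Dusp4* they were *Lpar1* (0.05), *Mybl2* (0.07) and *Slc45a3* (0.09), and for *Dusp6* *Tm6sf1* (0.08), *Lmo2* (0.12) and *Zcchc24* (0.13). *Tm6sf1* stood at 33.6 FPKM in the cKO library, 77.4 in the IL-3 library, 17.6 in the RANKL library and 125 in the M-CSF library. For *Ier3* they were *Coro2a* (0.11), *Cd53* (0.15) and *Angptl2* (0.17), for *Dusp5* *Icam1* (0.13), *Dyrk3* (0.14) and *Il2rg* (0.14), and for *Spred1* *Rxrb* (0.06), *Repin1* (0.06) and *Arhgap23* (0.07). The courses of *Dusp1*, *Spred1*, *Spred2* and *Spry2* span less than 2-fold, whereas every gene ranked spans at least 2-fold. The nearest were *Cfp*, *Tmem189* and *Klf6* for *Dusp1* (0.23 to 0.27), *Sc4mol*, *Itpr3* and *Tmem176b* for *Spry2* (0.14 to 0.20), and *Sc4mol*, *Tmem176b* and *Endod1* for *Spred2* (0.24 to 0.28). With 4 libraries, many genes can have a similar course.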

How the data were processed

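The authors made TruSeq RNA libraries from BMMs, ran them on a HiSeq2000 and deposited 1 table of values per RefSeq transcript, made with TopHat2 2.0.13 and Cufflinks 2.2.1 on mm10 per the submitters' processing notes. No unit is written in it, and the deposited values were taken to be FPKM because of the software and their range. Other options, strand use included: not given in the sources used here. For osteoclast cultures the methods give mice of 6 weeks.

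FPKM was summed per gene ID, and small RNA genes were left out, 46 of them at or above 1 FPKM in some library. The values of log2(FPKM + 1) were compared over 10763 genes that reached 1 FPKM in some library. A gene was called higher or lower from 2-fold on. No test, p-value or standard error was computed, since each condition has 1 library. The 10 genes and all lists were chosen with earlier results of these data known. Genes named are the 10, *Stat5a* and *Stat5b*, every listed gene at least 2-fold apart with at least 5 FPKM in 1 of the 2 libraries, and for each of the 10 at or above 5 FPKM the 3 most similar in course. Genes outside this rule were named as counts or marker checks, after their values were seen. *Hras*, *Adgre1* and *Ly6g* were not analysed here, and 1 result that the rule covers is not reported here.

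Depth came from the steps that single fragments leave in the smallest FPKM values, over genes with 1 transcript of 3000 nt or more. In each library 691 to 726 such values were used, of which 69.5% to 72.1% lay within 0.2 of a whole step, against 40% for even spacing. The step was fitted on the same values. Poisson and binomial 95% intervals on the implied fragments are exact for levels and folds and approximate for ratios. Positions are RefSeq's on GRCm38.p6, overlaps are from GENCODE M21. The calling of genes from 2-fold on was tried on simulated fragments drawn at the estimated depth, and the estimate of depth itself was not tested. Alternatives were 0.1 FPKM as pseudocount, median ratio or upper quartile scaling, a minimum of 5 FPKM or none, the most abundant transcript and a 1.5-fold threshold. Scripts ran in Python 3.11.15 with pandas 2.3.3, numpy 2.4.6, matplotlib 3.10.9 and scipy 1.17.1.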

Additional observations from a re-analysis of the deposited data

How the results depend on the processing

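All 30 ratios of the 10 genes kept their sign with a pseudocount of 0.1 FPKM, with scaling by the median ratio or the upper quartile, and with the most abundant transcript per gene. Their size was less stable. By more than the counting half-width, 19 of the 30 moved with median ratio scaling and 8 with the pseudocount of 0.1 FPKM. With upper quartile scaling 3 moved, and with the most abundant transcript 0. The counting intervals thus do not cover the choice of scaling. Scaling by the median ratio left 1 of the 10 genes at least 2-fold higher in cKO cells, *Dusp4*, with *Dusp2* at a log2 ratio of 0.99. Of all genes 1.72% were then higher in cKO cells. A minimum of 5 FPKM removes *Dusp2* and *Spry1* by construction and left 2 genes higher with RANKL, 1 higher in cKO cells and 1 lower with IL-3. The shares of all genes in these 3 counts were 5.66%, 2.17% and 3.51%. A threshold of 1.5-fold gave 4 genes lower with IL-3, adding *Spred1* and *Spry1*, beside 12.7% of all genes. It gave 4 higher in cKO cells, adding *Dusp5* and *Spred1*, beside 8.43% of all genes. With a pseudocount of 0.1 FPKM the log2 ratio of *Spry1* with RANKL was 2.90 and that of *Dusp2* 2.37, and *Spry1* at −1.33 joined the genes lower with IL-3. Since *Spry1* passed the filter only through the RANKL library, its direction was fixed here and at 1.5-fold.

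Among all genes, the pseudocount of 0.1 FPKM moved the share lower with IL-3 to 5.20% (against 3.47%) and that higher in cKO cells to 3.52% (against 2.11%). Shares were 1.00% to 3.26% with no minimum and 8.43% to 15.6% at 1.5-fold, over the 6 counts. Scaling by the median ratio takes away the shifts of 0.14, −0.15 and 0.13, and with it 435 genes were higher and 937 lower with RANKL, against 585 and 740 without, and 818 higher and 270 lower with IL-3, against 658 and 373. Only *Spry1* and *Dusp2* rest on fewer than 100 fragments in some library. No paired analysis was possible because each condition has 1 library, and for the same reason the spread between cultures or mice is unknown and no condition can be told apart from its library.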
